A study of Homo sapiens with 9 samples.

Results

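The genes described here are the 10 that encode the subunits of the hypoxia-inducible factors (HIFs), the hydroxylases that read oxygen for them and the ubiquitin ligase subunit that removes them. They are the alpha subunits HIF1A, EPAS1 and HIF3A, the beta subunits ARNT and ARNT2, the prolyl hydroxylases EGLN1, EGLN2 and EGLN3, the asparaginyl hydroxylase HIF1AN, and VHL. They were chosen by name, from every probe whose accession belongs to one of these symbols in RefSeq, and are 10 of 47753 gene names on the array. RNA of OEC-M1 cells, a line from a head and neck squamous cell carcinoma, was hybridised to 9 single-colour Agilent arrays. The cells had received control siRNA (siControl), GATA3 siRNA (GATA3 knockdown) or HIF1A siRNA (HIF-1α knockdown), with 3 arrays for each. All cells were at 1% O2 for 18 h and their RNA was taken 72 h after transfection, so no array shows cells at normal oxygen. The supplement names 1 siRNA per target for the arrays, so effects of the target and side effects of that siRNA cannot be told apart.

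A HIF is a pair of an alpha and a beta subunit. With oxygen present, the EGLN enzymes (also called PHDs) hydroxylate prolines of the alpha subunit, VHL then binds it, and it is ubiquitinated and degraded. HIF1AN (also called FIH) hydroxylates an asparagine and so keeps the coactivators p300 and CBP away. When oxygen is low these reactions slow, the alpha subunit stays, joins ARNT and binds DNA at the core letters ACGTG or GCGTG. EGLN1 and EGLN3 are known targets of HIF, which makes the pathway feed back on itself. Most of this control acts on protein, and an array measures only the amount of RNA.

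The 10 genes had 13 probes, with 1 probe each for 7 genes and 2 probes each for HIF1A, HIF3A and ARNT2. All 13 probes were well above background on all 9 arrays, and no spot of theirs was saturated. Values below are log2 normalised intensities, on which a difference of 1 is a doubling. A probe's level depends on its own binding, so no gene's level is set against another's. A gene was counted as changed at an unadjusted P of 0.05 or less in limma, the threshold of the study, and P adjusted by the Benjamini-Hochberg method over all genes is given beside it. Each slide held 1 array of each group, and arrays with the same replicate number shared a slide. Both knockdowns are compared with the same 3 siControl arrays.

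The median spot intensity ran from 992.5 on siControl replicate 3 to 3560 on siHIF1A replicate 1. The share of probes well above background was 88.0%, 85.8% and 85.8% in siControl, 75.4%, 83.0% and 73.3% in GATA3 knockdown and 83.4%, 87.0% and 80.0% in HIF-1α knockdown, so that all 3 GATA3 knockdown arrays lay below the siControl arrays. GATA3, the target of the other siRNA, was at 10.71, 11.12 and 11.48 in siControl and at 9.64, 9.48 and 10.40 in GATA3 knockdown, a change of -1.27 (SE 0.34, unadjusted P = 0.00371, adjusted P = 1.00 in limma). Of 10 epithelial markers, 8 were well above background on all 9 arrays and KRT5 was on none. This check is weak, because 7 of 8 markers of other cell types were also well above background on all 9 arrays. In GATA3 knockdown the epithelial markers were below siControl for 10 of 10, with 0 past the threshold and a median of -0.39. Over all genes 2.97% passed, with a median of -0.02. Against HIF-1α knockdown the epithelial markers in GATA3 knockdown were lower for 10 of 10, with 3 past it and a median of -0.55. Between the knockdowns 12.0% of all genes passed. In HIF-1α knockdown 8 of these markers were above siControl and 2 below, with 0 past the threshold and a median of 0.16. Over all genes 5.23% passed there, with a median of -0.01. The share of all genes below 0 was not counted, so 10 of 10 has no share to be set against.

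HIF1A itself, the target of the siRNA, was lower in HIF-1α knockdown. It was at 16.71, 16.24 and 17.24 in siControl, at 17.02, 16.03 and 16.99 with GATA3 siRNA and at 14.51, 14.13 and 14.59 with HIF1A siRNA. All 3 HIF-1α knockdown arrays lay below all 6 others, while the siControl and GATA3 knockdown arrays overlapped. The change in HIF-1α knockdown was -2.32 (SE 0.35, n = 3 per group), which leaves 20.0% of the siControl level (unadjusted P = 6.16e-05, adjusted P = 0.295 in limma). It was -2.20, -2.11 and -2.65 on the 3 slides. With the slide as a block the adjusted P was 0.0416. Set directly against HIF-1α knockdown, HIF1A was higher in GATA3 knockdown by 2.27 (SE 0.35, adjusted P = 0.133 in limma, and 0.0346 with the slide as a block). In GATA3 knockdown the difference from siControl was -0.05, with a 95% interval from -0.83 to 0.73, and it did not pass the test (unadjusted P = 0.897 in limma). From the scanner's processed signal, scaled at its 75th percentile, this difference was 0.14.

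A second HIF1A probe is printed as 10 spots on each array, which shows how far spots of 1 probe differ within an array. Its spots had an SD between 0.10 and 0.31 on an array. The mean of the spots was 13.40, 13.25 and 14.31 in siControl, 13.95, 12.86 and 14.13 in GATA3 knockdown, and 11.24, 10.81 and 11.59 in HIF-1α knockdown. The lowest array outside HIF-1α knockdown was thus GATA3 knockdown replicate 2 with both probes. The second probe changed by -2.43 (SE 0.41) in HIF-1α knockdown and by -0.01 (SE 0.41) in GATA3 knockdown. Before any background correction or normalisation, the brighter probe read 84074 to 157341 in siControl, 86871.5 to 105973 in GATA3 knockdown and 17337 to 39820.5 in HIF-1α knockdown, which again did not overlap with the others. HIF1A-AS1, an antisense RNA of the HIF1A locus with a probe of its own, changed by 0.13 (SE 0.25) in HIF-1α knockdown and by -0.26 (SE 0.25) in GATA3 knockdown and passed in neither.

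**Figure D1:**
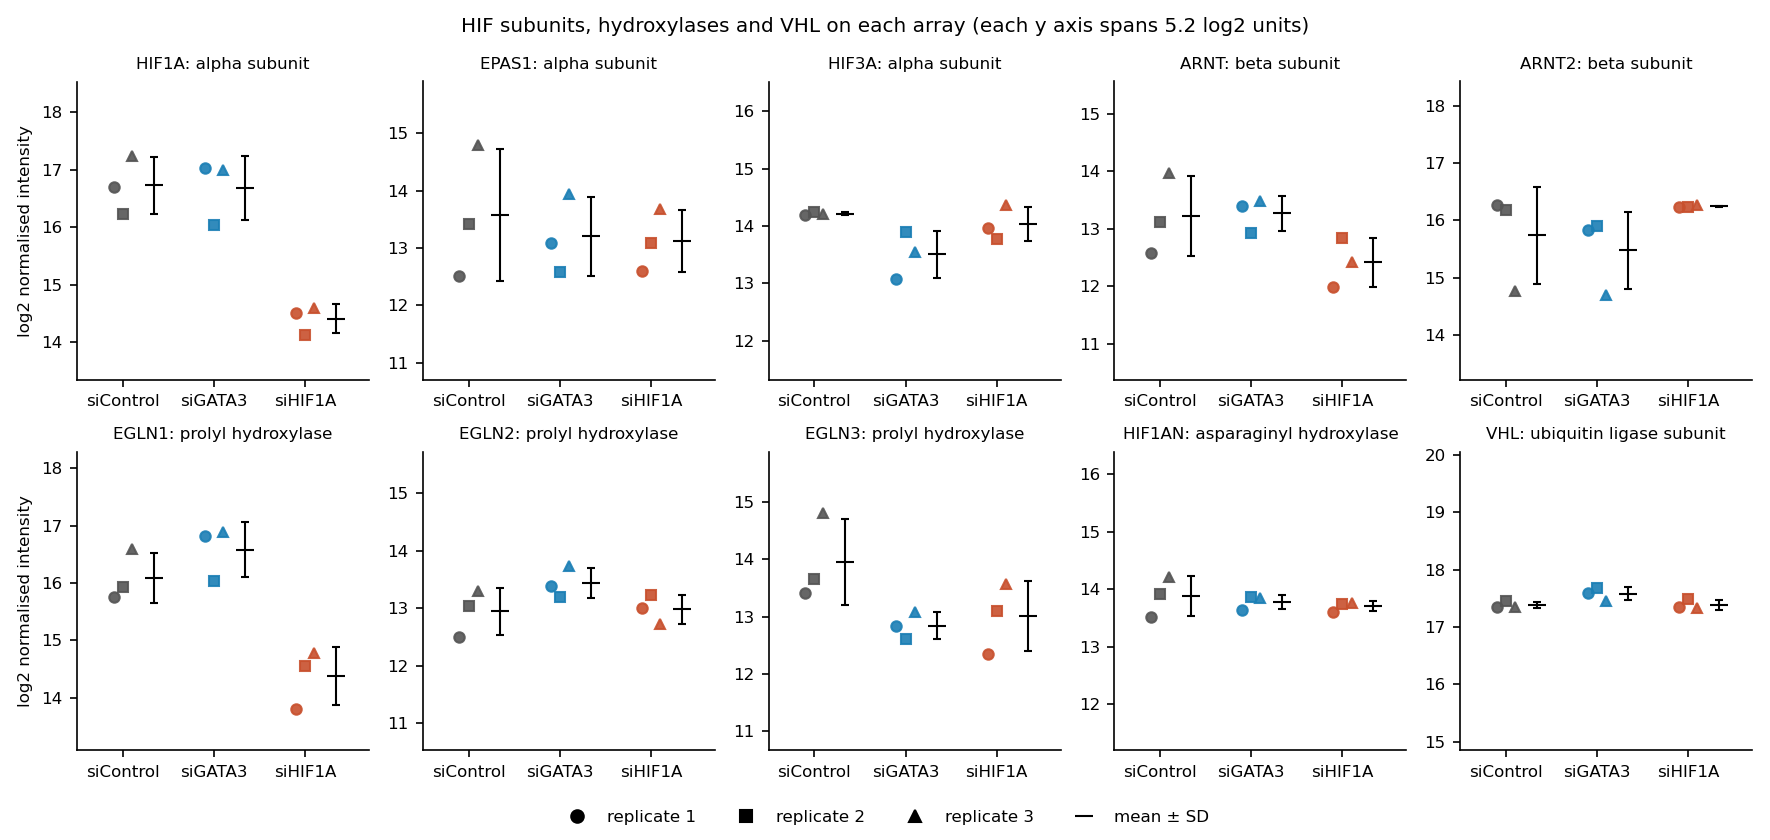
Log2 normalised intensity of the probe that stands for each gene (y axis, 5.2 log2 units in every panel) on the 3 arrays of each group (x axis). Marker shapes give the slide (replicate number), and bars give the mean ± SD of 3 arrays. HIF1A and EGLN1 are the genes whose 3 siHIF1A arrays lie below all 6 others.

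EPAS1, which encodes HIF-2α, did not pass the test in either knockdown, and it varied widely within a group (SD 1.15 in siControl). Its levels were 12.52, 13.43 and 14.79 in siControl, 13.09, 12.58 and 13.95 in GATA3 knockdown and 12.60, 13.09 and 13.67 in HIF-1α knockdown. The third replicate was the highest of each group, and the groups overlapped. The difference from siControl was -0.46 (95% interval -1.72 to 0.80) in HIF-1α knockdown and -0.37 (95% interval -1.63 to 0.89) in GATA3 knockdown. Both intervals hold changes of more than 1 log2 unit, so a change of the size seen for EGLN3 could not be told from none. Without siControl replicate 3, the differences were 0.15 and 0.23.

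HIF3A, whose product can act against the other alpha subunits, was counted as lower in GATA3 knockdown by 1 of its 2 probes. That probe was at 14.20, 14.24 and 14.20 in siControl, at 13.07, 13.90 and 13.54 in GATA3 knockdown and at 13.96, 13.78 and 14.36 in HIF-1α knockdown. The GATA3 knockdown arrays lay below the siControl arrays but overlapped with the HIF-1α knockdown arrays. The change was -0.71 (SE 0.27, unadjusted P = 0.026, adjusted P = 1.00 in limma), or 1.63-fold lower, and -1.12, -0.34 and -0.66 on the 3 slides. On the same GATA3 knockdown arrays the share of probes well above background was lower as well. So were the epithelial markers, with 0 of 10 past the threshold. The part of either in the falls of HIF3A and EGLN3 was not tested. In HIF-1α knockdown the change of HIF3A was -0.18 (SE 0.27), and the difference between the knockdowns did not pass (unadjusted P = 0.0800 in limma). The dimmer probe of HIF3A, which was left out on siControl replicate 1 as non-uniform, was higher by 0.14 (SE 0.32) in GATA3 knockdown and did not pass, so the probes differed in direction. Without GATA3 knockdown replicate 1 the change of the brighter probe was -0.49 (unadjusted P = 0.104 in limma), and without siControl replicate 2 it was -0.69 (unadjusted P = 0.0618 in limma). With the mean of both probes in place of the brighter one, HIF3A did not pass in GATA3 knockdown (-1.15, unadjusted P = 0.0891 in limma) or in HIF-1α knockdown (-0.88, unadjusted P = 0.181 in limma), and on siControl replicate 1 that mean holds the brighter probe alone. In siControl the brighter probe averaged 14.21 and the dimmer 9.03 over its 2 arrays. This gap raises the mean on siControl replicate 1, so these 2 values do not measure a change.

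ARNT, the common beta subunit, did not pass the test against siControl in either knockdown, but it did between the knockdowns. It was at 12.58, 13.11 and 13.96 in siControl, 13.40, 12.92 and 13.48 in GATA3 knockdown and 11.99, 12.84 and 12.42 in HIF-1α knockdown. The HIF-1α knockdown arrays lay below the GATA3 knockdown arrays and overlapped with siControl. Against siControl the difference was -0.80 (SE 0.37, unadjusted P = 0.0575, adjusted P = 0.823 in limma), and -0.59, -0.28 and -1.54 on the 3 slides. With the slide as a block it passed (unadjusted P = 0.0395 in limma), and without siControl replicate 3 it was -0.43 (unadjusted P = 0.218 in limma). Set directly against HIF-1α knockdown, ARNT was higher in GATA3 knockdown by 0.85 (SE 0.37, unadjusted P = 0.0462, adjusted P = 0.415 in limma). This call is lost on leaving out siHIF1A replicate 1 (0.64), siGATA3 replicate 3 (0.75), siGATA3 replicate 1 (0.79), siControl replicate 2 (0.85) or siHIF1A replicate 3 (0.86). It is also lost with the scanner's processed signal (0.84, unadjusted P = 0.0733 in limma), the deposited log2 table (0.81, unadjusted P = 0.0754), 75th percentile scaling after background correction (0.85, unadjusted P = 0.0531), limma's trended and robust variance (unadjusted P = 0.0529) and array brightness as a covariate (0.33, unadjusted P = 0.106). In GATA3 knockdown against siControl ARNT differed by 0.05 (95% interval -0.79 to 0.88).

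ARNT2, a beta subunit best known from the nervous system, passed in no comparison by its brighter probe, and its 2 probes did not follow each other across the arrays. The brighter probe was at 16.27, 16.18 and 14.77 in siControl, 15.83, 15.89 and 14.71 in GATA3 knockdown and 16.23, 16.24 and 16.26 in HIF-1α knockdown. Replicate 3 of siControl and of GATA3 knockdown, from the same slide, stood below the other 7 arrays, the lowest of which was at 15.83. The dimmer probe was at 11.01, 11.30 and 12.09 in siControl, 10.74, 11.07 and 11.14 in GATA3 knockdown and 11.78, 12.08 and 12.18 in HIF-1α knockdown, with siControl replicate 3 the highest of its group. With both probes all 3 GATA3 knockdown arrays lay below all 3 HIF-1α knockdown arrays. That difference was -0.77 (SE 0.44, unadjusted P = 0.112) with the brighter probe and -1.03 (SE 0.30, unadjusted P = 0.00689, adjusted P = 0.319) with the dimmer probe in limma, where 12.3% of all probes passed. With the slide as a block the brighter probe passed too (unadjusted P = 0.0418 in limma), as it did in a fit of these 2 groups alone (unadjusted P = 0.0498). The scanner's processed signal gave -0.63 (unadjusted P = 0.226 in limma) and the deposited log2 table -0.65 (unadjusted P = 0.211). Scaling at the 75th percentile after background correction gave -0.63 (unadjusted P = 0.192), and array brightness as a covariate -0.23 (unadjusted P = 0.487). None of these passed. Leaving out 1 array gave values from -0.98 to -0.38, which passed in 1 of 9 fits. With the mean of both probes ARNT2 passed between the knockdowns (-0.90, unadjusted P = 0.0029 in limma) and was higher in HIF-1α knockdown than in siControl (0.53, unadjusted P = 0.0441 in limma). The 2 arrays where the brighter probe was low also had the lowest median spot intensities, 992.5 (siControl) and 1410 (GATA3 knockdown). The other 7 arrays had 1627 to 3560. With array brightness as a covariate the brighter probe differed from siControl by -0.0088 in HIF-1α knockdown, against 0.50 without it. The summed level of the markers of other cell types was low on the same 2 arrays, at 16.53 and 17.04 on the log2 scale. It was 17.50 to 17.85 on the other 7 arrays. This sum is made up mostly of the brightest markers, and not every marker had a value on every HIF-1α knockdown array. The part of brightness or of these markers in the result was not tested.

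**Figure D2:**
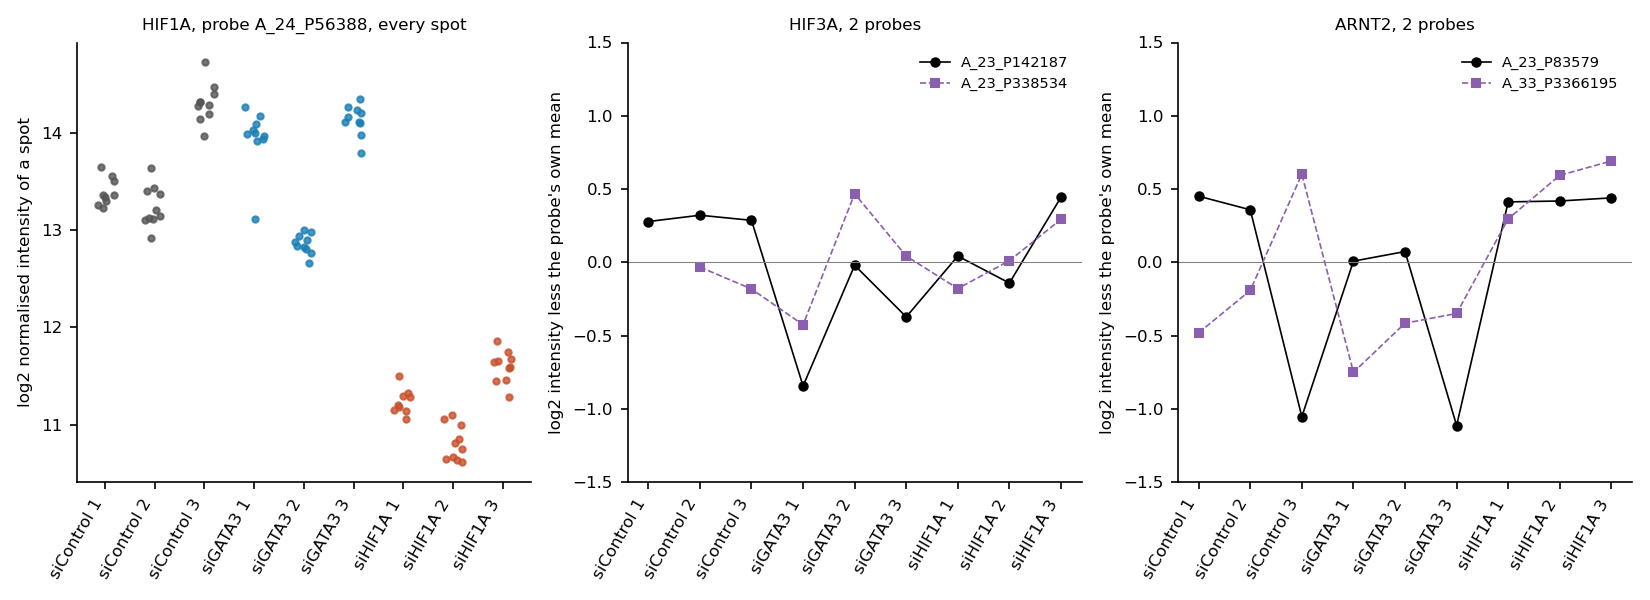
Left, every spot of the HIF1A probe that is printed 10 times per array (y axis, log2 normalised intensity, points spread sideways for sight) on the 9 arrays (x axis). Middle and right, both probes of HIF3A and of ARNT2, each less its own mean over the arrays (y axis, log2). The HIF1A spots of the siHIF1A arrays lie below every other spot. The brighter HIF3A probe lies above the dimmer in siControl, where both have values, and below it in siGATA3. The brighter ARNT2 probe is low on siControl 3 and siGATA3 3 alone.

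By their calls, EGLN1 was lower in HIF-1α knockdown alone, EGLN2 passed in neither knockdown and EGLN3 was lower in both. No difference between these genes was tested. In GATA3 knockdown EGLN1 and EGLN2 differed from siControl by like amounts, 0.49 and 0.50, and neither passed. With array brightness as a covariate EGLN1 passed (0.47, unadjusted P = 0.0493 in limma), and so did EGLN2, where 10.1% of all genes passed. EGLN2 also passed in 1 of 9 fits with an array left out (unadjusted P = 0.0432 in limma). The promoters of all 3 are shown here because EGLN1 and EGLN3 are known to be induced by HIF. The 250 bases before the start site are given 5′ to 3′ on the strand of the gene, from RefSeq on GRCh38.p14, with capitals for ACGTG or GCGTG on either strand.
EGLN1, chr1:231422288-231422537, minus strand: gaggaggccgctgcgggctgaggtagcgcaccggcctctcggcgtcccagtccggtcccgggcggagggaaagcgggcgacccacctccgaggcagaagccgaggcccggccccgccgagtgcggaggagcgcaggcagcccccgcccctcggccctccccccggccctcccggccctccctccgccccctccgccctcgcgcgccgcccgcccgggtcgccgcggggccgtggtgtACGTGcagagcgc
EGLN2, chr19:40798941-40799190, plus strand: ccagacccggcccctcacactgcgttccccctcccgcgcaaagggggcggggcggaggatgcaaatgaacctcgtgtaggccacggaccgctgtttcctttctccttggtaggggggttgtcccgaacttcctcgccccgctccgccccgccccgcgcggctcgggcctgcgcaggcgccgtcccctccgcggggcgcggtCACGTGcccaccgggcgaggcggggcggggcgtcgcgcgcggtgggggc
EGLN3, chr14:33951075-33951324, minus strand: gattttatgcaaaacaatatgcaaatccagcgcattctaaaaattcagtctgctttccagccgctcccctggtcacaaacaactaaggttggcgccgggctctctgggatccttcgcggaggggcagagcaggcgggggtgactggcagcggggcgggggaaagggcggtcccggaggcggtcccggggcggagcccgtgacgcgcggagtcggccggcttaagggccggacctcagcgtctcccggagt
The EGLN1 window holds ACGTG once, from base -13 of the start site. The EGLN2 window holds CACGTG, which reads ACGTG on both strands, so that 2 overlapping matches are 1 place, and it starts at base -49. The EGLN3 window holds neither set of letters. Of 35116 windows of this length in the table, 43.2% hold at least 1 match. Among the 8 genes with a promoter in the table, the first window listed held a match for 5, which were HIF1A, EPAS1, HIF3A, EGLN1 and EGLN2. The share of 43.2% counts every listed window, and the later windows of HIF1A, HIF3A and EGLN2 held no match. So 5 of 8 cannot be set against that share. The windows of ARNT, EGLN3 and HIF1AN held none, and ARNT2 and VHL had no entry.

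EGLN1, the main enzyme that marks HIF-1α for removal, was lower in HIF-1α knockdown, with the largest fall after HIF1A itself among the 10 genes. It was at 15.75, 15.93 and 16.59 in siControl, 16.81, 16.04 and 16.90 in GATA3 knockdown and 13.81, 14.55 and 14.78 in HIF-1α knockdown. As for HIF1A, the 3 HIF-1α knockdown arrays lay below all 6 others. The change was -1.71 (SE 0.36, n = 3 per group), or 3.28-fold lower (unadjusted P = 7.74e-04, adjusted P = 0.483 in limma), and -1.94, -1.39 and -1.81 on the 3 slides. In GATA3 knockdown EGLN1 differed from siControl by 0.49 (95% interval -0.31 to 1.29) and did not pass (unadjusted P = 0.201 in limma), although the difference was above 0 on all 3 slides. Set directly against HIF-1α knockdown, EGLN1 was 4.61-fold higher in GATA3 knockdown (log2 2.20, SE 0.36, unadjusted P = 1.14e-04, adjusted P = 0.134 in limma, and adjusted P = 0.0430 with the slide as a block).

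EGLN2, the prolyl hydroxylase also called PHD1, did not pass in either knockdown. It was at 12.49, 13.04 and 13.30 in siControl, 13.39, 13.20 and 13.73 in GATA3 knockdown and 12.99, 13.22 and 12.73 in HIF-1α knockdown. All groups overlapped. The difference from siControl was 0.04 (95% interval -0.59 to 0.66) in HIF-1α knockdown and 0.50 (95% interval -0.13 to 1.12) in GATA3 knockdown. RefSeq also lists a transcript that reads through from RAB4B into EGLN2, and the array values cannot say how much of the EGLN2 signal comes from it.

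EGLN3, the prolyl hydroxylase best known for its strong response to hypoxia, was the gene of the 10 that was counted as lower in both knockdowns. It was at 13.41, 13.65 and 14.80 in siControl, 12.83, 12.60 and 13.08 in GATA3 knockdown and 12.35, 13.10 and 13.57 in HIF-1α knockdown. All 3 GATA3 knockdown arrays lay below all 3 siControl arrays, whereas siHIF1A replicate 3 lay above siControl replicate 1. The change was -1.12 (SE 0.41, unadjusted P = 0.0227, adjusted P = 1.00 in limma) in GATA3 knockdown, or 2.17-fold lower, and -0.95 (SE 0.41, unadjusted P = 0.0459, adjusted P = 0.823 in limma) in HIF-1α knockdown, or 1.93-fold lower. On the 3 slides it was -0.57, -1.05 and -1.72 in GATA3 knockdown and -1.05, -0.55 and -1.23 in HIF-1α knockdown. The knockdowns differed from each other by -0.17 (95% interval -1.09 to 0.75, unadjusted P = 0.689 in limma), which did not pass. With array brightness as a covariate this difference was -0.71 and passed (unadjusted P = 0.0232 in limma).

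Both EGLN3 calls rested in part on siControl replicate 3, the dimmest array. On it EGLN3, EPAS1, ARNT, HIF1A and HIF1AN were each at their highest of the 9 arrays after normalisation. Before background correction and normalisation none of them was highest there, and EGLN3 read 15125.5 against 15751 on siControl replicate 1. Without siControl replicate 3 the EGLN3 change was -0.69 (unadjusted P = 0.0815 in limma) in GATA3 knockdown and -0.52 (unadjusted P = 0.175 in limma) in HIF-1α knockdown. The GATA3 knockdown call was also lost without siGATA3 replicate 1 (-1.11, unadjusted P = 0.0513 in limma) or siGATA3 replicate 2 (-0.998, unadjusted P = 0.0674 in limma). The HIF-1α knockdown call was lost in 6 of 9 fits with 1 array left out, the lowest change in size being the one without siControl replicate 3, and -0.62 without siHIF1A replicate 1. In the other 4 of these fits, without siHIF1A replicate 2 or any 1 of the siGATA3 arrays, the change was -0.99 or -0.95. With the slide as a block both changes passed (unadjusted P = 0.00365 with GATA3 siRNA and 0.00919 with HIF1A siRNA in limma). The HIF-1α knockdown call was lost with the scanner's processed signal (-0.93, unadjusted P = 0.0591 in limma), the deposited log2 table (-0.93, unadjusted P = 0.0585), a fit of the 2 groups alone (-0.95, unadjusted P = 0.0730) and array brightness as a covariate (-0.43, unadjusted P = 0.132).

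**Figure D3:**
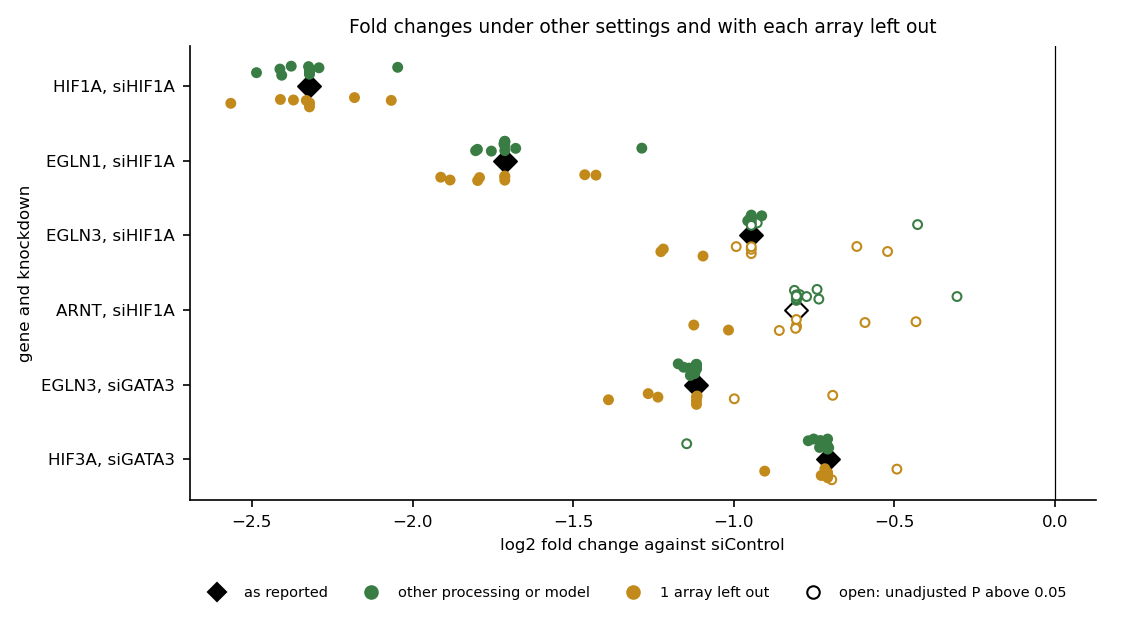
Log2 fold change against siControl (x axis) for the calls among the 10 genes and for ARNT (y axis), as reported (diamonds), under each other processing or model at an unadjusted P (green) and with each of the 9 arrays left out (ochre). Filled markers passed an unadjusted P of 0.05, and open markers did not. HIF1A and EGLN1 in siHIF1A passed in every such fit, while EGLN3 and HIF3A lost the call in some.

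HIF1AN, which hydroxylates the asparagine of the alpha subunits, and VHL showed small differences. HIF1AN was at 13.52, 13.93 and 14.22 in siControl, 13.64, 13.86 and 13.84 in GATA3 knockdown and 13.60, 13.75 and 13.77 in HIF-1α knockdown. Its difference from siControl was -0.18 (95% interval -0.72 to 0.35) in HIF-1α knockdown and -0.10 (95% interval -0.64 to 0.43) in GATA3 knockdown, so a change of 1 log2 unit lies outside both intervals. VHL, the substrate receptor of the ligase, was at 17.35, 17.45 and 17.35 in siControl, 17.59, 17.68 and 17.46 in GATA3 knockdown and 17.34, 17.49 and 17.32 in HIF-1α knockdown. The GATA3 knockdown arrays lay just above the siControl arrays, with a difference of 0.19 (95% interval -0.26 to 0.65) that did not pass. In HIF-1α knockdown the VHL difference was 0.00 (95% interval -0.45 to 0.45), and -0.33 from the scanner's processed signal at 75th percentile scaling, where it did not pass either.

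**Figure D4:**
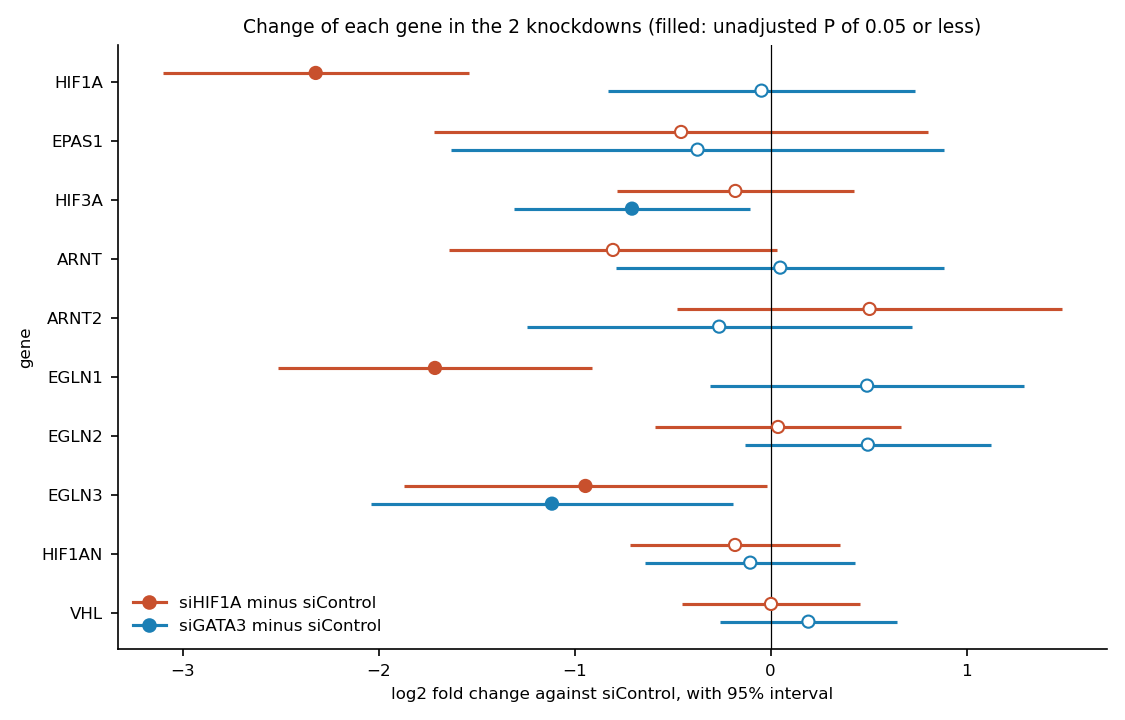
Log2 fold change against siControl (x axis) of each gene (y axis) in HIF-1α knockdown (orange) and GATA3 knockdown (blue), with the 95% interval from limma. Filled markers passed an unadjusted P of 0.05. HIF1A at -2.32 and EGLN1 at -1.71 fell in HIF-1α knockdown alone, HIF3A at -0.71 passed in GATA3 knockdown, and EGLN3 passed in both.

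Counted together, 3 of the 10 genes were lower in HIF-1α knockdown (HIF1A, EGLN1 and EGLN3) and 0 were higher. Over all 47368 genes tested, 5.23% passed, 3.28% lower and 1.95% higher. In GATA3 knockdown 2 were lower (HIF3A and EGLN3) and 0 were higher, where 2.97% of all genes passed, 1.38% lower and 1.59% higher. GATA3 knockdown set against HIF-1α knockdown had 3 genes higher (HIF1A, ARNT and EGLN1) and 0 lower, where 12.0% of all genes passed, 6.93% higher and 5.05% lower. These shares moved with single arrays. Without siControl replicate 3 the share in GATA3 knockdown was 12.7% (6006 genes), and without siGATA3 replicate 2 it was 4.64%. In HIF-1α knockdown it was 10.1% (4798 genes) without siControl replicate 1 and 2.98% without siHIF1A replicate 1, 3.26% without siHIF1A replicate 3 and 3.54% without siControl replicate 3. Between the knockdowns it was 20.5% without siGATA3 replicate 2 and 20.0% without siControl replicate 3, against 5.70% without siGATA3 replicate 3, 6.94% without siGATA3 replicate 1, 6.48% without siHIF1A replicate 1 and 6.33% without siHIF1A replicate 3. HIF1A is the siRNA target and is no evidence about the rest of the 10.

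After adjustment in limma without the slide as a block, none of the 10 passed in any comparison. With the block HIF1A passed in HIF-1α knockdown (adjusted P = 0.0416), and HIF1A (adjusted P = 0.0346) and EGLN1 (adjusted P = 0.0430) passed between the knockdowns. Over all genes, without the block, 0 passed in each knockdown (0%) and 2 of 47356 passed between the knockdowns (0.00422%). The share of all genes past the adjusted P with the block was not counted. The calls with the block therefore cannot be set against these shares. At an unadjusted P the block raised the share of all genes from 5.23% to 8.41% in HIF-1α knockdown and from 12.0% to 18.7% between the knockdowns. Arrays that did not overlap between groups were found in HIF-1α knockdown for 2 of the 10 lower (8.08% of all genes lower and 5.19% higher), in GATA3 knockdown for 2 lower and 1 higher (3.43% and 2.59%), and between the knockdowns for 3 higher and 1 lower (11.9% and 10.9%). The median change of the 10 was -0.32 in HIF-1α knockdown and -0.08 in GATA3 knockdown, beside -0.01 and -0.02 over all genes. The median in HIF-1α knockdown includes HIF1A, the siRNA target, as do the counts of groups apart in HIF-1α knockdown and between the knockdowns.

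Among 21 other regulators and cofactors of HIF, all well above background on all 9 arrays, few passed. In HIF-1α knockdown, SENP1, a SUMO protease that acts on HIF-1α, rose by 1.097 (SE 0.40), and SIAH2, a ubiquitin ligase for prolyl hydroxylases, fell by 0.88 (SE 0.37). In GATA3 knockdown, PTGES3, the HSP90 cochaperone p23, rose by 1.36 (SE 0.42), and ELOB, which binds VHL in the ligase, fell by 0.49 (SE 0.20). Thus 1 rose and 1 fell in each, and 19 did not pass. Over all genes 5.23% passed in HIF-1α knockdown and 2.97% in GATA3 knockdown. The median change of the 21 was -0.23 in HIF-1α knockdown and 0.03 in GATA3 knockdown. Between the knockdowns AJUBA, PTGES3 and RBX1 were higher in GATA3 knockdown, by 1.53 (SE 0.41), 1.45 (SE 0.42) and 0.68 (SE 0.29). Their adjusted P was 0.307, 0.335 and 0.411 in limma. These are 3 of 21, where 12.0% of all genes passed. The SENP1 call was lost without siControl replicate 3 (0.53) or siHIF1A replicate 1 or 3, the SIAH2 call without siControl replicate 1 or 3 or siHIF1A replicate 2, and the PTGES3 rise over siControl without siGATA3 replicate 3. The ELOB call was lost on leaving out any 1 of the 9 arrays, and the RBX1 call in 5 of the 9 fits. Of 7 other partners of ARNT from the bHLH-PAS family, 6 were on the array and 0 passed in any comparison.

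Known targets of HIF-1 were read from the same arrays. Of 20 listed targets 19 were on the array. The list was chosen with earlier results of these data known, so its counts and medians are a description. In HIF-1α knockdown 14 were lower and 0 higher (3.28% and 1.95% of all genes), with a median change of -1.30. VEGFA, SLC2A1, LDHA, ENO1 and BHLHE40 did not pass there. The 4 largest falls were those of BHLHE41, a transcriptional repressor (-2.81, SE 0.29), ANKRD37 (-2.72, SE 0.57), PFKFB4, a regulator of glycolysis (-2.34, SE 0.50), and BNIP3, a mitophagy receptor (-2.18, SE 0.28). In GATA3 knockdown 0 were lower and 1 was higher (1.38% and 1.59% of all genes), BHLHE41 by 0.76 (SE 0.29), with a median change of 0.03. The BHLHE41 rise was lost without siControl replicate 1 or 2 or siGATA3 replicate 1 or 3, and its lowest value with an array left out was 0.57. Between the knockdowns 14 targets were higher in GATA3 knockdown (6.93% of all genes), with a median of 1.34. Beside the targets' median of -1.30 in HIF-1α knockdown, EGLN1 was at -1.71 and EGLN3 at -0.95.

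Genes with a pattern near that of HIF1A and EGLN3 were found by the root mean square difference between centred levels over the 9 arrays, among 17250 named genes well above background in a group. For HIF1A they were SAMSN1 (0.22), ALDOC (0.25) and KISS1R (0.29), which changed by -2.69, -1.83 and -2.51 in HIF-1α knockdown and by -0.10, 0.31 and -0.43 in GATA3 knockdown. ALDOC is a glycolytic enzyme and KISS1R a receptor for kisspeptin. For EGLN3 they were HSF4 (0.19), RTP4 (0.23) and CST6 (0.23), which changed by -0.77, -0.48 and -1.04 in HIF-1α knockdown and by -0.94, -0.73 and -1.35 in GATA3 knockdown. HSF4 is a heat shock transcription factor and CST6 a cystatin. These genes were picked from these arrays for their likeness, so their values are a description.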

How the data were processed

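RNA was measured on 9 arrays, 3 per group, and the groups and replicate numbers come from the sample labels. The authors deposited, for each array, the scanner output of Agilent Feature Extraction 10.5.1.1 (per the file headers, with build GRCh37), in which each spot has a median intensity, a local background, a processed intensity and marks for outlying and dim spots, none normalised between arrays. A deposited table holds log2 values, which equal the log2 processed intensity less a constant that sets each array's 75th percentile to 0. That table was used only as an alternative.

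With R 4.3.3 and limma 3.58.1, the background was corrected by normexp with an offset of 50 over all spots, control spots were dropped, non-uniform spots were set to missing and the arrays were quantile normalised. Repeated spots were averaged per probe, and a gene was represented by its brightest probe over the 9 arrays. Of 58201 probes, 31104 matched a RefSeq symbol. The 3 groups were fitted in 1 limma model (lmFit and eBayes) over all genes, so they share 1 estimate of the spread. The model was tested on simulated data. The number of arrays limits the precision. The labels do not say that replicates came from separate cultures, so P measures the spread between these samples. In bulk RNA, fewer cells of a type and less RNA per cell cannot be told apart. Where a probe lies in its transcript is not given in the sources used here.

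The 10 genes and the other lists were chosen with earlier results of these data known. Genes named were the 10 themselves, list genes past the threshold (at most the 4 largest changes in a direction) and the 3 genes nearest in pattern to HIF1A and to EGLN3. KRT5, HIF1A-AS1 and GATA3 were named as checks, and the HIF-1 targets that did not pass in HIF-1α knockdown were named as well. Promoters were searched with Python 3.11.15 in RefSeq windows of GRCh38.p14, and no coordinates of the array build were used. The alternatives were other background corrections and scalings, the deposited table, dim or non-uniform spots treated otherwise, the mean of a gene's probes, other models, array brightness as a covariate, the slide (replicate number) as a block, adjusted P, and each array left out.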

Additional observations from a re-analysis of the deposited data

How the results depend on the processing

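Under 12 other settings and with each of the 9 arrays left out in turn, the changes of HIF1A and EGLN1 in HIF-1α knockdown kept their direction. They passed an unadjusted P of 0.05 in limma in each of these fits. They failed the adjusted P without the replicate block, and with it the adjusted P was 0.0416 for HIF1A and 0.153 for EGLN1. Over the 46 gene changes named in the text, 483 of 552 values under the other settings kept direction and side of the threshold, 49 lost the call, 8 gained one and 12 changed sign. With an array left out, 349 of 414 did, 41 lost the call, 5 gained one and 19 changed sign. The cause was not tested unless stated.

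Sign changes were found only for differences that had not passed. With the processed signal and with the deposited log2 table, respectively, HIF1A in GATA3 knockdown was 0.14 and 0.12, EGLN2 in HIF-1α knockdown was -0.0059 and -0.00026, and VHL in HIF-1α knockdown was -0.33 and -0.32. VHL was -0.31 with 75th percentile scaling after normexp, a setting that moved the median of all genes between the knockdowns from 0.00 to 0.15. With array brightness as a covariate, in HIF-1α knockdown ARNT2 was -0.0088, EPAS1 0.32 and VHL -0.017, and between the knockdowns EPAS1 was -0.73 and HIF1AN -0.094. With arrays left out, the range in GATA3 knockdown was -0.27 to 0.42 for ARNT, -0.75 to 0.12 for ARNT2, -0.90 to 0.23 for EPAS1, -0.29 to 0.28 for HIF1A and -0.29 to 0.060 for HIF1AN. In HIF-1α knockdown it was -0.19 to 0.22 for EGLN2, -0.99 to 0.15 for EPAS1 and -0.051 to 0.036 for VHL, and between the knockdowns -0.50 to 0.11 for EGLN3 and -0.29 to 0.40 for EPAS1.

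The number of the 10 genes past the threshold in GATA3 knockdown, 2, was 1 with the mean of a gene's probes, 4 with array brightness as a covariate, and 0 to 2 with arrays left out. Over all genes the share was 2.97% as reported, 3.02% with the mean of probes and 10.1% with the covariate. It was 2% to 12.7% with arrays left out. The gene lost with the mean of probes was HIF3A. Its dimmer probe is missing on siControl replicate 1, so that the mean there holds the brighter probe alone. That lost call therefore does not measure a change of HIF3A. By adjusted P without the replicate block the number was 0 in all 3 comparisons for the 10 genes and for the regulators. For the HIF-1 targets it was 0 in each knockdown and 1 between the knockdowns. The HIF-1 targets in GATA3 knockdown, 1, became 3 with array brightness as a covariate (10.1% of all genes) and 0 to 3 with arrays left out.

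The regulators were the least stable. Their 2 calls in GATA3 knockdown became 1 with the processed signal, the deposited table or normexp without an offset. They also became 1 with 75th percentile scaling after normexp, eBayes with trend and robust, or the 2 groups alone. They became 7 with array brightness as a covariate, where 10.1% of all genes passed, and ran from 0 to 4 with arrays left out. Their 2 calls in HIF-1α knockdown became 0 with the processed signal and the deposited table, 1 with 75th percentile scaling after normexp, with non-uniform spots kept and with eBayes with trend and robust, and ran from 0 to 4 with arrays left out. Their 3 calls between the knockdowns became 5 with 75th percentile scaling after normexp and with eBayes with trend and robust, 6 with the 2 groups alone, and ran from 2 to 7 with arrays left out.

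With the replicate number as a block, which is also the slide, the regulators past the threshold were 4 in GATA3 knockdown, 4 in HIF-1α knockdown and 5 between the knockdowns. The block raised the count over all genes from 1418 to 2381 in GATA3 knockdown, from 2478 to 3983 in HIF-1α knockdown and from 5675 to 8876 between the knockdowns. Among the 10 genes it added ARNT in HIF-1α knockdown and ARNT2 between the knockdowns and removed no call. Deviations of arrays with the same number correlated between -0.19 and 0.72, so arrays that shared a slide did not deviate alike throughout. Other settings that moved the count over all genes by more than 1.5 times in GATA3 knockdown were the processed signal (3050), the deposited table (2889), array brightness as a covariate (4834) and the 2 groups alone (928), and the last gave 8630 between the knockdowns. With an array left out it ran from 953 to 6006 in GATA3 knockdown, from 1412 to 4798 in HIF-1α knockdown and from 2693 to 9702 between the knockdowns.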
